A study of Rattus norvegicus with 50 samples.

Results

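The lungs taken 180 days after the end of exposure (D180) were those of 5 control and 5 exposed rats, 10 of the 50 lungs in the series, and they were chosen by their labels alone. Male F344 rats, an inbred laboratory strain, were 12 weeks old at exposure. The exposed rats inhaled P25 nanoparticles of titanium dioxide (TiO2) through the nose at 10 mg/m3, and the controls breathed filtered air. Exposure lasted 6 h per day on 5 days a week during 4 weeks, and other rats were killed at D0, D3, D28 and D90. RNA of the accessory lobe of each lung was hybridized to its own one-colour Agilent rat array, and the labels name no other treatment and no modified gene. The question was which genes still differed between exposed and control lungs at D180, and how those differences compared with the earlier days. Only 1 lobe of males of 1 strain, exposed when young, was sampled. In such bulk tissue fewer cells of a type and less RNA per cell cannot be told apart.

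Titanium dioxide is poorly soluble, and particles that reach the alveoli are taken up mainly by alveolar macrophages, which carry them for a long time. Macrophages that have taken up particles release chemokines, which draw neutrophils and other leukocytes, and they can take on an alternative state marked by chitinase-like proteins and resistin-like molecules. The airway lining answers irritants with peroxidases, mucins and proteases, and the lung also keeps its own circadian clock, a loop in which the activators Arntl and Clock switch on their own repressors.

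Levels are given as log2 normalized signal, the background-corrected fluorescence of a gene's probes after quantile normalization over all 50 arrays. Changes are differences of these log2 levels, exposed minus control, each with its standard error (SE) and the adjusted p of limma over 25235 genes. Differentially expressed genes (DEGs) changed 1.5-fold or more in either direction with an adjusted p under 0.05. The median signal of the 10 arrays ran from 337 to 464, and between 73.4% and 84.5% of their gene spots were well above background. The depth of an array cannot be counted, so precision rests on rats, with 5 per group. The SE and p of a gene used 1 spread within groups, estimated over all 50 arrays and not from the D180 rats alone.

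At D180, 82 genes were DEGs (0.325% of the genes tested), of which 62 were higher (over-expressed, 0.246%) and 20 lower (under-expressed, 0.0793%) in exposed lungs. Their median change was 1.97-fold and 38 changed at least 2-fold. The 5 exposed values lay wholly above or below the 5 control values for 74 of the 82 DEGs, against 1056 of all genes tested (4.18%). Over all genes the median change was 0.00 (log2), and 240 genes passed when the fold limit was dropped. With 1 array left out the DEGs numbered 60 (without exposed replicate 2) to 89 (without exposed replicate 5), and without exposed replicate 2 or 4 only 13 were under-expressed. Scaling each array to its 75th percentile gave 47 over- and 32 under-expressed genes (59.5% over-expressed, against 75.6%), normexp background correction 32 and 18 (64.0%), and the values tabulated by the authors 34 and 19 (64.2%). The over-expressed genes held some known from macrophages and airways, circadian repressors and fat oxidation enzymes. The under-expressed genes held the desaturases Scd1 and Scd4 and the clock genes Arntl, Cry1 and Nfil3.

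**Figure D1:**
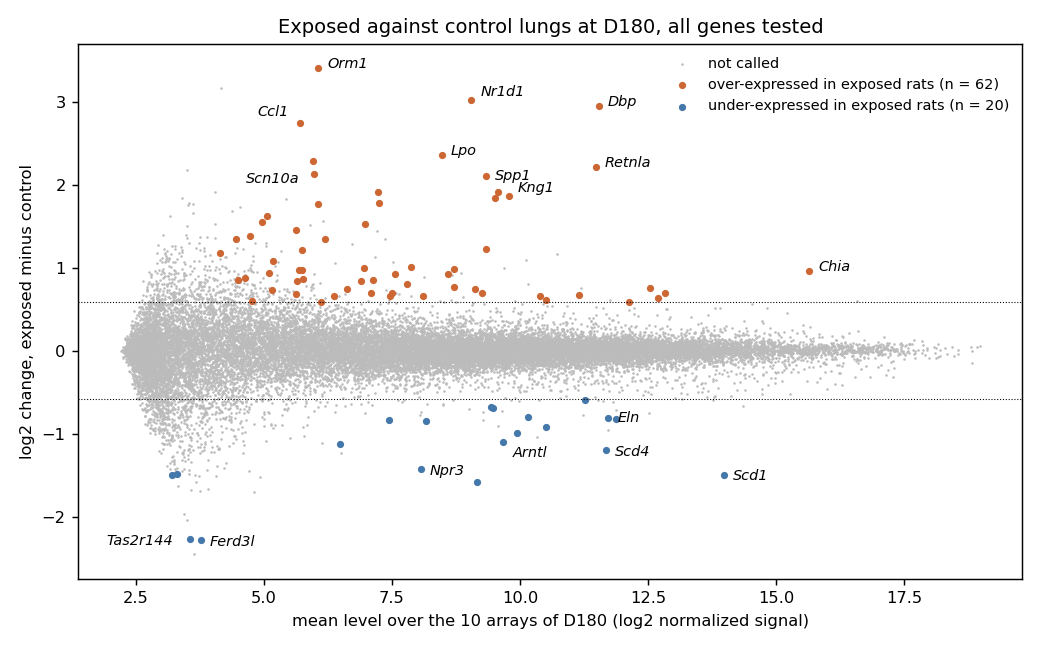
The mean level of each gene over the 10 arrays of D180 (log2 normalized signal) is plotted against its log2 change in exposed against control lungs, with the 1.5-fold limit as dotted lines. The 62 genes over- and 20 genes under-expressed are coloured, and Orm1, Nr1d1 and Dbp lie highest among them.

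The 3 slides that carried the D180 arrays each held both groups. Of the variance among the 10 arrays, the first principal component held 21.6%, and slide accounted for 75.5% of it against 25.9% for exposure. The third component held 12.7%, of which exposure accounted for 46.9%. All 82 DEGs moved the same way within each of the 3 slides. For the 74 whose groups did not overlap this was fixed in advance, so it is no check of slide for them. With slide added to the fit as a block, 132 genes were DEGs (0.523% of those tested), 89 over- and 43 under-expressed, and 80 of the 82 remained among them, the other two being Clec5a (0.54) and Orc1 (0.58). The median SE was 0.17 (log2) without the block and 0.11 with it.

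**Figure D2:**
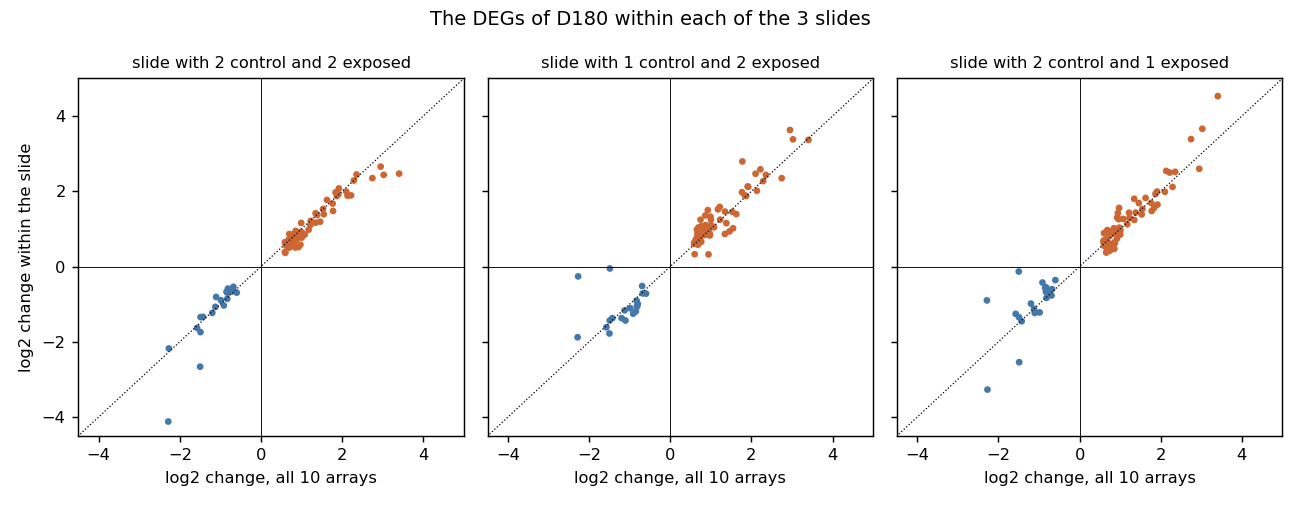
The log2 change of each of the 82 DEGs over all 10 arrays (x axis) is plotted against its change within 1 slide (y axis), with equality as a dotted line. Every DEG lies on the same side of 0 on both axes in all 3 panels, as genes whose groups do not overlap must.

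Genes known from macrophages, among other cells, were among the most changed, and which cells made their RNA was not tested. Retnla, a resistin-like molecule of alternatively activated macrophages and airway epithelium, had levels of 10.00, 10.66, 9.94, 10.74 and 10.51 in controls and 12.56, 12.82, 12.40, 12.35 and 12.84 in exposed rats. All exposed levels lay above all control levels, and the change was 2.22 (SE 0.18, limma adjusted p = 1.2e-11). Ccl1, a chemokine that draws T cells through the receptor CCR8, was at 3.50 to 4.94 in controls, of which 3 of 5 were well above background, and at 6.62 to 7.55 in exposed rats. The groups did not overlap, and the change was 2.75 (SE 0.34, adjusted p = 8.2e-07), or 1.21 with normexp background correction. Spp1 (osteopontin), secreted by macrophages and wound tissue, stood at 7.92, 8.58, 7.68, 8.93 and 8.31 in controls and at 10.60, 10.87, 10.28, 9.90 and 10.29 in exposed rats. The lowest exposed lung thus lay almost 1 log2 unit above the highest control, with a change of 2.10 (SE 0.27, adjusted p = 2.3e-06).

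Of 15 genes listed for alternative activation, 3 were over-expressed (20%, against 0.246% of all genes tested) and none under-expressed. Of the 15 changes 13 were positive, with a median of 0.19 (log2), against 12904 positive of 25235 over all genes. Besides Retnla the over-expressed members were Chia, an acidic chitinase (0.96, SE 0.11), and Chi3l1, a chitinase-like protein (0.59, SE 0.11). Chia was at 15.02 to 15.31 in controls and 15.88 to 16.35 in exposed rats, without overlap. Chi3l1 lay at the fold limit, and its call was lost under 5 of 12 alternatives and without control replicate 1, 3 or 5 or exposed replicate 1 or 5 (0.53 to 0.57). Of 35 chemokine ligands, Ccl1 and Ccl7 were over-expressed (5.71%, against 0.246% of all genes tested), and the median change of the list was 0.03. Ccl7, which draws monocytes, overlapped between groups, with 6.40 to 7.58 in controls and 7.54 to 8.40 in exposed rats (0.93, SE 0.24, adjusted p = 0.050), and its call was lost under 9 of 12 alternatives and without control replicate 1, 2, 3 or 4 or exposed replicate 1, 2, 3 or 5 (adjusted p = 0.052 to 0.22). Ccl12 (1.06, adjusted p = 0.36) and Cxcl5, a neutrophil attractant (0.29, adjusted p = 1.0), were not called.

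Lists of macrophage content showed small values. Of 20 genes listed for lipid-laden macrophages, Spp1 was over-expressed, while Apoe (0.25, adjusted p = 0.44) and the elastase Mmp12 (0.36, adjusted p = 0.64) were not called. Of the 20 changes 18 were positive, with a median of 0.09, against 12904 positive of 25235 over all genes. The mean level of that list, Spp1 included, was 12.68 to 12.90 in controls and 12.95 to 13.06 in exposed rats. None of 29 lysosomal genes was called, although 26 of their changes were positive, with a median of 0.06 and with values such as 0.51 for Ctsk (adjusted p = 0.21), a cysteine protease. None of 14 alveolar macrophage identity genes was called, and 7 of them were positive. Of 20 neutrophil genes, Cd177, a surface protein of neutrophils, was over-expressed (0.64, SE 0.15, adjusted p = 0.027), a call lost without control replicate 1, 3 or 5 or exposed replicate 1, 4 or 5 (adjusted p = 0.052 to 0.088). S100a9, a calcium-binding protein abundant in neutrophils, differed by 0.57 without being called (adjusted p = 0.093). No gene was called among 20 lymphocyte, 11 MHC class II and 20 interferon-stimulated genes, with medians of 0.05, 0.13 and 0.09, against 0.00 over all genes.

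Orm1, an acute phase plasma protein also made by alveolar cells, was over-expressed. Its control levels were 4.42, 5.79, 3.15, 4.04 and 4.40, with 1 of 5 arrays well above background, and its exposed levels were 7.73, 8.06, 7.40, 7.51 and 8.12, all well above it. The groups were apart by more than 1.5 log2 units, and the change was 3.41 (SE 0.43, adjusted p = 1.7e-06), or 1.60 with normexp background correction. The 3.41 was the largest change of the DEGs as processed here, but the 1.60 was below the normexp values of Dbp (2.85) and Nr1d1 (2.58). Of 18 acute phase genes, Ptx3, a pentraxin that binds microbes and complement, was also over-expressed (0.81, SE 0.13). Orm1 and Ptx3 were 11.1% of that list, against 0.246% of all genes tested that were over-expressed. Haptoglobin (Hp), which binds free haemoglobin, was higher by less than 1.5-fold (0.52, SE 0.08, adjusted p = 5.7e-05).

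Of 3 kininogen genes tested, Kng1 and Kng1l1 were over-expressed, and the gene listed as Kng2 was not called (11.18 in controls and 11.28 in exposed rats, 0.10, adjusted p = 0.78). Kininogens are precursors of bradykinin and inhibit cysteine proteases. Kng1 was at 8.75 to 9.04 in controls and 10.57 to 10.83 in exposed rats, without overlap, and changed by 1.87 (SE 0.14, adjusted p = 8.7e-12). Kng1l1 was at 6.00 to 6.59 and 7.89 to 8.54 (1.91, SE 0.25). The RefSeq table now calls the array's Kng1 Kng2 and its Kng1l1 Kng1, and whether probes of the 3 genes read each other's transcripts was not tested. No other gene of 50 in the complement and coagulation list was called, and the median of that list was 0.02. The central complement protein C3 (0.45, adjusted p = 0.00042) and its inhibitor Cfi (0.52, adjusted p = 0.00042) were higher by less than 1.5-fold, with no overlap between groups.

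Genes known from the airway lining made up a further group. Lpo, the lactoperoxidase that airway glands secrete against bacteria, stood at 7.14, 6.74, 7.31, 7.95 and 7.32 in controls and at 9.57, 9.76, 9.39, 9.38 and 10.15 in exposed rats. The groups were clearly apart, with a change of 2.36 (SE 0.29, adjusted p = 8.9e-07). None of the other 11 genes of its list was called, among them the hydrogen peroxide source Duox1 (0.34, adjusted p = 0.13) and the anion exchanger Slc26a4 (0.61, adjusted p = 0.062). Of 17 mucin and secretory genes only Muc20, a membrane mucin, was over-expressed (0.68, SE 0.16, adjusted p = 0.027), a call lost with normexp background correction (0.30) and without control replicate 2, 3 or 4 or exposed replicate 4 or 5 (adjusted p = 0.053 to 0.095). Bpifb1, a secreted airway protein, was not called (0.69, adjusted p = 0.29). Tmprss9 (1.63, SE 0.22) and Tmem45b (1.38, SE 0.24) were called in the list of 14 genes for epithelial serine proteases and their partners. They were 14.3% of that list, against 0.246% of all genes tested that were over-expressed. Of the controls 4 of 5 were well above background for Tmprss9 and 2 of 5 for Tmem45b, and with normexp background correction the changes were 0.51 and 0.34. Tmprss4, a membrane serine protease, reached 0.58 (SE 0.09, adjusted p = 2.5e-05), just under the fold limit, and was called in the fit blocked by slide.

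**Figure D3:**
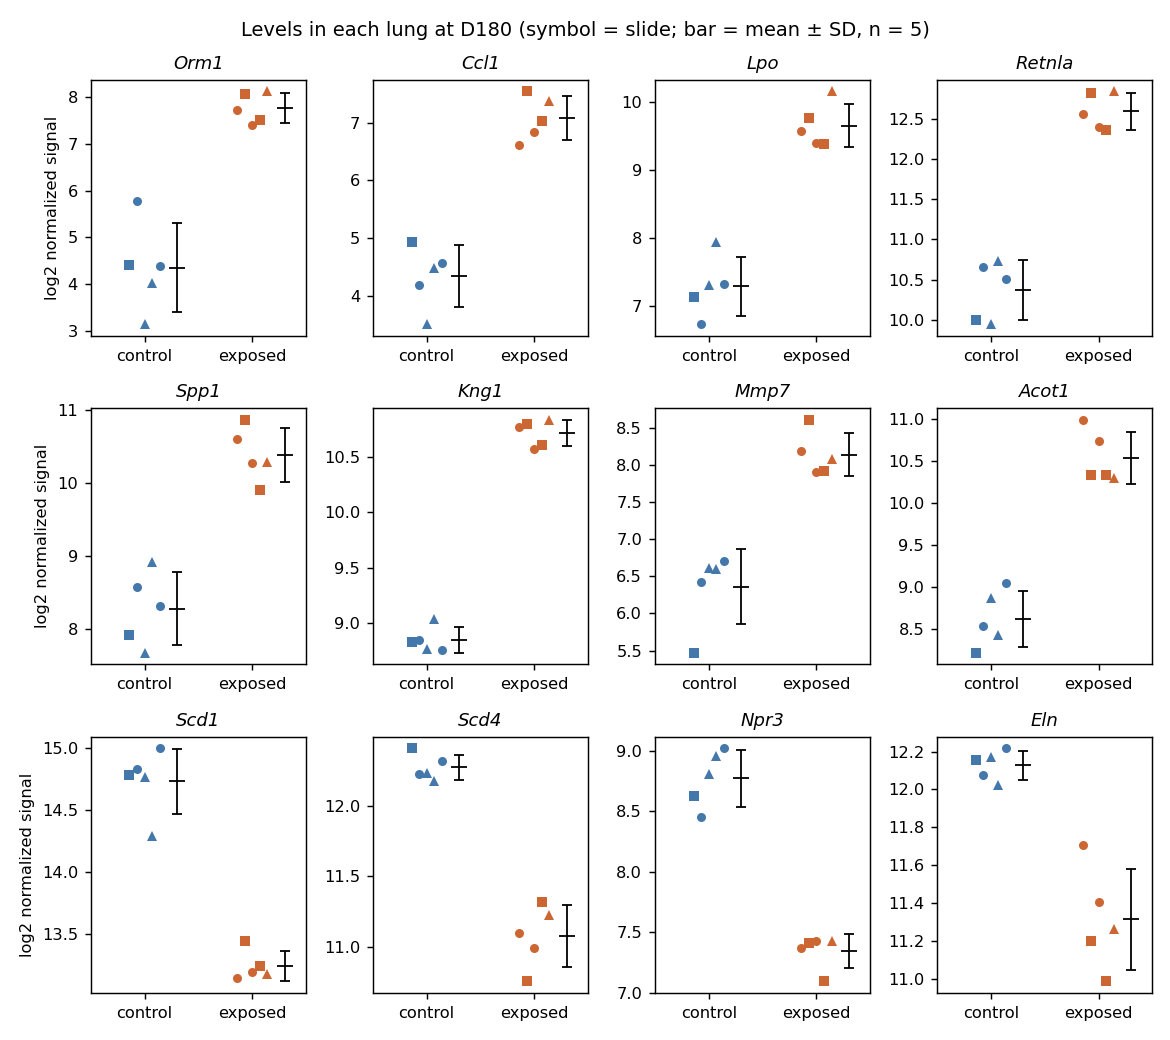
Levels of 12 named genes in each D180 lung (log2 normalized signal) are shown for control (blue) and exposed (orange) rats, with the symbol giving the slide and the bar the mean ± SD of 5 rats. In all 12 panels the exposed lungs lie wholly above or wholly below the controls, as the rule that named these genes required.

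The matrix list held 1 call in each direction. Mmp7 (matrilysin), an epithelial protease that activates defensins and cleaves matrix, was at 5.47 to 6.71 in controls and 7.90 to 8.61 in exposed rats (1.78, SE 0.24, adjusted p = 3.9e-06). Eln, the elastin precursor, was at 12.02 to 12.22 in controls and at 11.71, 11.20, 11.41, 10.99 and 11.26 in exposed rats. The Eln levels did not overlap and the change was -0.81 (SE 0.20, adjusted p = 0.027), although the call was lost without control replicate 1, 3 or 5 or exposed replicate 2 or 4 (adjusted p = 0.059 to 0.097). Of the other 30 matrix genes none was called, and Tnc (tenascin C) stood at -0.48 (adjusted p = 0.11) and the collagen gene Col5a1 at -0.26 (adjusted p = 0.049).

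Genes of other functions were among the 15 largest increases. Scn10a encodes a voltage-gated sodium channel of sensory neurons and was at 5.01, 5.09, 4.94, 4.42 and 5.14 in controls and at 7.07, 7.25, 6.92, 6.80 and 7.22 in exposed rats. All 10 lungs were well above background, and the change was 2.13 (SE 0.17, adjusted p = 1.2e-11), or 1.09 with normexp background correction. Aqp3, a water and glycerol channel of epithelia, rose by 1.84 (SE 0.24, adjusted p = 2.3e-06), from 8.30 to 8.82 in controls to 10.10 to 11.04 in exposed rats.

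The 12 largest decreases among DEGs that have a symbol and no overlap between groups also held genes of no list. Fibin, a secreted protein, was at 10.45 to 10.72 in controls and 9.42 to 10.10 in exposed rats (-0.80, SE 0.13, adjusted p = 0.00010). Hs3st6, a heparan sulfate sulfotransferase, was at 12.18 to 12.39 and 11.11 to 11.79 (-0.82, SE 0.17, adjusted p = 0.0075). Further such genes were Zp1 (-1.12, adjusted p = 0.041), Tmem26 (-0.83, adjusted p = 0.033) and Amigo2, an adhesion molecule (-0.69, adjusted p = 0.032). Zp1 lost its call without any array but control replicate 2, Tmem26 without any but control replicate 2 and exposed replicate 5, and Amigo2 without control replicate 2, 3 or 4 or exposed replicate 1, 2 or 4, at adjusted p-values up to 0.12. Under the 12 alternatives Zp1 lost its call in 3, Tmem26 in 2 and Amigo2 in 3. The 2 probes of Amigo2 taken singly had limma adjusted p-values of 0.094 and 0.065.

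DEGs of fatty acid metabolism were the desaturase genes Scd1 and Scd4, which were lower, and the fat oxidation genes Acot1 and Cpt1a, which were higher. Scd1, a stearoyl-CoA desaturase that makes oleate from stearate, was at 14.78, 14.82, 14.76, 14.29 and 14.99 in controls and at 13.14, 13.45, 13.19, 13.24 and 13.18 in exposed rats. The fall was wholly outside the spread of both groups (-1.49, SE 0.18, adjusted p = 8.0e-07). Its relative Scd4 was at 12.18 to 12.41 and 10.75 to 11.32 (-1.20, SE 0.15, adjusted p = 8.0e-07), and the gene listed as Scd was lower by less than 1.5-fold (-0.52, SE 0.09, adjusted p = 0.00038). Scd1 and Scd4 held the only calls among 26 genes of unsaturated fatty acid synthesis, where 6 of the changes were positive and the median was -0.16. The desaturase Fads2 did not overlap between groups but was not called (-0.40, adjusted p = 0.14). RefSeq now gives Scd1 as Scd, and whether probes for the desaturase relatives read each other's transcripts was not tested. None of 19 cholesterol synthesis genes was called, with a median of 0.02.

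Of 21 fat oxidation genes under PPAR alpha, 2 were over-expressed (9.52%, against 0.246% of all genes tested). Of the 21 changes 18 were positive, with a median of 0.13, against 12904 positive of 25235 over all genes. Acot1, which frees fatty acids from coenzyme A, was at 8.21 to 9.04 in controls and 10.29 to 10.99 in exposed rats (1.92, SE 0.25, adjusted p = 2.3e-06). Cpt1a, which carries fatty acids into mitochondria, was at 10.09 to 10.35 and 10.70 to 10.92 (0.61, SE 0.10, adjusted p = 8.5e-05). Without control replicate 4 or exposed replicate 4 Cpt1a lay just under the fold limit (0.58 in both). Its call was also lost with normexp background correction and with the authors' values, with changes down to 0.55. Acadl, a mitochondrial dehydrogenase, was higher by 0.30 (SE 0.06, adjusted p = 0.0016), and Acot2 was not called (0.48, adjusted p = 0.11). None of 12 surfactant genes was called, and Sftpa1, a surfactant protein of alveolar type II cells, stood at 0.12 (adjusted p = 0.79).

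Of 23 targets of the oxidant sensor Nrf2, the cystine importer Slc7a11 was over-expressed (0.74, SE 0.13, adjusted p = 0.00045), and its call was lost under 4 of 12 alternatives (0.28 with normexp background correction). Srxn1, another target, was at 0.14 (adjusted p = 0.67). None of 15 iron handling genes was called, nor any of 15 glucocorticoid-responsive genes, among which Fkbp5 was at -0.74 (adjusted p = 0.44). Among 13 heat shock genes every change was negative, with a median of -0.37 against 0.00 over all genes, where 12904 of 25235 changes were positive. The groups did not overlap for 8 of the 13 (4.18% of all genes), but none was called. The small chaperone Hspb1 was lower by less than 1.5-fold (-0.41, SE 0.08, adjusted p = 0.0015), and Hsph1 was at -0.65 (adjusted p = 0.068). In the fit blocked by slide 2 of the 13 were under-expressed. Of 14 natriuretic and vasoactive genes, Npr3, the receptor that clears natriuretic peptides, was under-expressed, from 8.45 to 9.02 in controls to 7.10 to 7.43 in exposed rats (-1.43, SE 0.19, adjusted p = 3.3e-06). The vasodilator peptide Adm stood at -0.60 (adjusted p = 0.052). None of 24 cell cycle genes was called, although 23 were positive with a median of 0.24, and Kif11 and Ccnb1 stood at 0.42 (adjusted p = 0.15) and 0.38 (adjusted p = 0.26).

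Circadian genes held some of the largest changes. In the clock loop, Arntl with Clock or Npas2 binds the E-box CACGTG and switches on Per, Cry and Nr1d genes and the output factors Dbp and Tef. Nr1d1 and Nr1d2 repress Arntl and Nfil3, so that both arms peak at different hours. Of 10 genes listed for clock output, 6 were over-expressed and none was under-expressed (60.0%, against 0.246% of all genes tested), with a median change of 0.80. A further list held 5 genes of the positive arm and of those that peak with it. Of these 5, 3 were under-expressed (60.0%, against 0.0793% of all genes tested) and none was over-expressed, with a median of -0.85.

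Because the E-box is the site of the clock activators, the promoter windows of RefSeq (build GRCr8, 250 bases before to 50 after the start of a gene) were searched for CACGTG, which reads the same on both strands. A window was matched for 69 of the 82 DEGs, and 4 of them (5.80%) held the letters, against 1810 of 27457 promoter windows (6.59%). Of 8 called clock genes with a window, Nr1d1 and Tef held it, and these are shown 5′ to 3′ with the E-box in capitals.
Nr1d1, chr10:84229610-84229675 on the minus strand: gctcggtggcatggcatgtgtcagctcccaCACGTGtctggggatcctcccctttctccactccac
Tef, chr7:115206599-115206664 on the plus strand: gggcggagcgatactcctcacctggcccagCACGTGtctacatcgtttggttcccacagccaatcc
The match begins 191 bases before the start site in Nr1d1 and 198 bases before it in Tef. Epm2a and C2cd4a, the other matches, are not clock genes of the lists.

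Dbp, a transcription factor of clock output, was at 9.79, 9.98, 10.13, 10.27 and 10.15 in controls and at 12.46, 13.31, 12.99, 13.52 and 12.80 in exposed rats. The groups lay more than 2 log2 units apart at their nearest lungs, and the change was 2.95 (SE 0.24, adjusted p = 1.2e-11), with 2.90 to 2.97 for its 3 probes taken singly. Nr1d1, the nuclear receptor REV-ERB alpha whose promoter is shown above, was at 6.96, 7.96, 8.04, 6.23 and 8.51 in controls and at 10.63, 10.16, 10.71, 10.52 and 10.80 in exposed rats. Controls were scattered over more than 2 log2 units and exposed rats over less than 1, without overlap (3.02, SE 0.33, adjusted p = 6.1e-08). The relative Nr1d2 rose by 1.53 (SE 0.18, adjusted p = 2.5e-07), Tef by 0.76 (SE 0.11, adjusted p = 1.2e-05), Per2 by 0.92 (SE 0.21, adjusted p = 0.016) and Per3 by 0.84 (SE 0.16, adjusted p = 0.0014). Each of these 4 was higher in all exposed lungs than in all controls. The Per3 call was lost with normexp background correction (0.53, under the fold limit), with its brightest probe and with the authors' values. Its 3 probes gave 1.46, 0.93 and 0.58 from dimmest to brightest, and only the dimmest had an adjusted p under 0.05. The Per2 call was lost without exposed replicate 2 (0.83, adjusted p = 0.079) or exposed replicate 4 (0.85, adjusted p = 0.062).

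Arntl (BMAL1), the activator of the loop, was at 10.37, 10.26, 10.19, 10.15 and 10.14 in controls and at 9.48, 8.97, 9.31, 8.91 and 8.93 in exposed rats. Controls were almost alike, and all exposed rats lay below them (-1.10, SE 0.17, adjusted p = 4.0e-05). Cry1, a repressor that peaks late in the loop, fell by 0.98 (log2, SE 0.13, adjusted p = 3.8e-06), and Nfil3, a repressor of Dbp targets, fell by 0.85 (log2, SE 0.12, adjusted p = 6.2e-06), both without overlap. Npas2 was at -0.74 without overlap and was not called (adjusted p = 0.13, and 0.0099 with slide as a block), and Clock was at -0.28 (adjusted p = 0.62). Per1 (-0.18, adjusted p = 1.0) and Bhlhe40 (0.39, adjusted p = 0.032, under the fold limit) of the output list were not called.

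Across the days, 8 of the 9 called clock genes went both ways, Cry1 being the exception. The output list had a median change of -0.72 at D0 and -1.27 at D3, against 0.81, 1.02 and 0.80 at D28, D90 and D180. The Dbp level of controls was 14.56 ± 0.18 at D0 and 14.52 ± 0.13 at D3, and it was then 10.08 ± 0.16 at D28, 10.14 ± 0.21 at D90 and, at D180, 10.07 ± 0.19 (SD, n = 5 each). Exposed rats stood between these levels at every day, with 12.57 ± 0.26 (D0), 12.06 ± 0.41 (D3), 13.32 ± 0.78 (D28), 13.48 ± 0.53 (D90) and 13.02 ± 0.42 (D180). Arntl mirrored this, with control means of 7.13 (D0), 7.50 (D3), 10.02 (D28), 10.13 (D90) and 10.22 (D180), and exposed means between 8.37 and 9.12. The controls of D28 shared their slides with those of D0 and D3. The hour at which lungs were taken is not given in the sources used here.

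**Figure D4:**
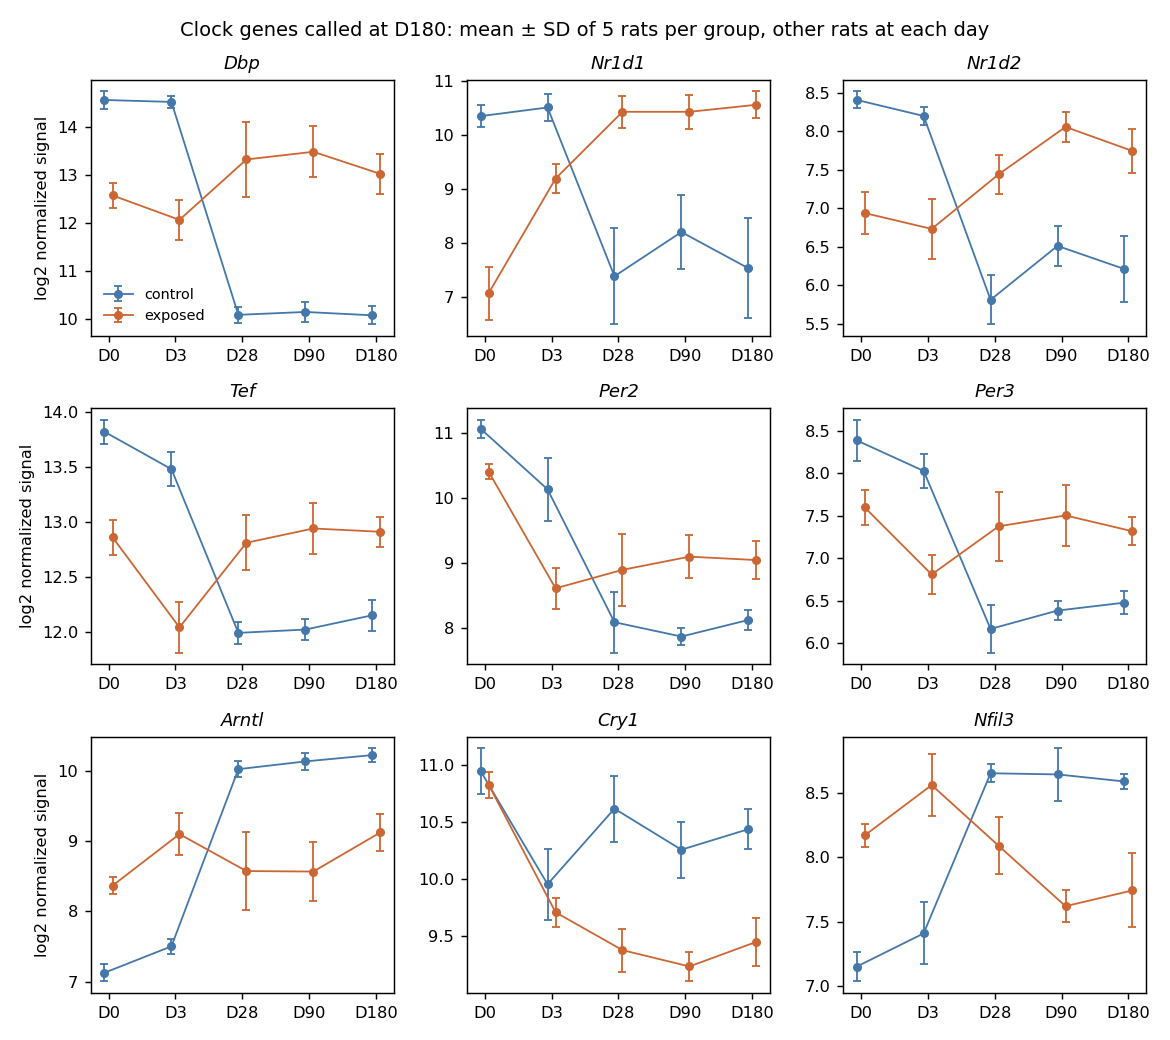
Levels of the 9 clock genes called at D180 (log2 normalized signal) are shown at each day as the mean ± SD of 5 control (blue) and 5 exposed (orange) rats, with days evenly spaced and other rats at each. For Dbp the control mean drops from 14.52 at D3 to 10.08 at D28 while the exposed mean goes from 12.06 to 13.32, so that the order of the groups turns.

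Each day had its own controls, and rats of later days were older when killed. The DEGs of D180 were set against those of the other days. Over all genes tested, the shares over- and under-expressed were 0.230% and 0.139% at D90, 0.836% and 0.460% at D28, 1.90% and 1.52% at D3, and 2.70% and 1.47% at D0. Of the 82 DEGs, 47 were called in the same direction at D90 (57.3% of the D180 DEGs and 50.5% of the 93 at D90, where 0.369% of genes were called). At D28 these were 57 (69.5% of the D180 DEGs and 17.4% of the 327 at D28, 1.30% of genes), at D3 27 (32.9% and 3.13% of 863, 3.42% of genes) and at D0 37 (45.1% and 3.52% of 1052, 4.17% of genes). Calls in the opposite direction numbered 12 at D0 and 20 at D3, and there was none at D28 or D90.

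In 18 genes the over-expression was called on all 5 days. Of them 16 have a symbol, namely Orm1, Ccl1, Lpo, Retnla, Scn10a, Spp1, Kng1l1, Kng1, Mmp7, Tmprss9, Chia, Mylk2, Fstl4, Muc20, Cd177 and Chi3l1. Their D180 changes ran from 0.59 to 3.41 (log2), and the median of the 18 was 1.95 (D0), 2.10 (D3), 1.75 (D28), 1.23 (D90) and 1.82 (D180). The change was larger at D180 than at D90 in 12 of the 18, and none of these differences was called. For 5 of the 18 the effect differed between D180 and D0 by the interaction test, as for Retnla, which stood at 3.53 (D0), 3.17 (D3), 2.65 (D28), 1.80 (D90) and 2.22 (D180). Lpo, by contrast, was at 2.59, 3.24, 3.27, 2.16 and 2.36 over the same days. Mylk2, a myosin light chain kinase, rose by 0.77 (SE 0.12) and Fstl4, a follistatin-like protein, by 0.75 (SE 0.11) at D180.

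In 21 DEGs the direction was opposite at D0 or D3, 10 of them over- and 11 under-expressed at D180. Of these, 8 were clock genes of the lists, and 20 were called at D28 as at D180. Scd1 was called on every day, with -0.75 (D0), 0.66 (D3), -1.68 (D28), -1.47 (D90) and -1.49 (D180), and Eln at 0.91 at D3, -0.88 at D28 and -1.23 at D90. A further 14 DEGs were called at D180 alone, 10 over- and 4 under-expressed, among them Cpt1a, Dact1 and Adam19. The remaining 29 were called in the same direction on some but not all other days, such as Acot1 and Aqp3, which were called at D28 (1.07 and 1.56) and D90 (1.57 and 2.15) but not at D0 or D3.

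**Figure D5:**
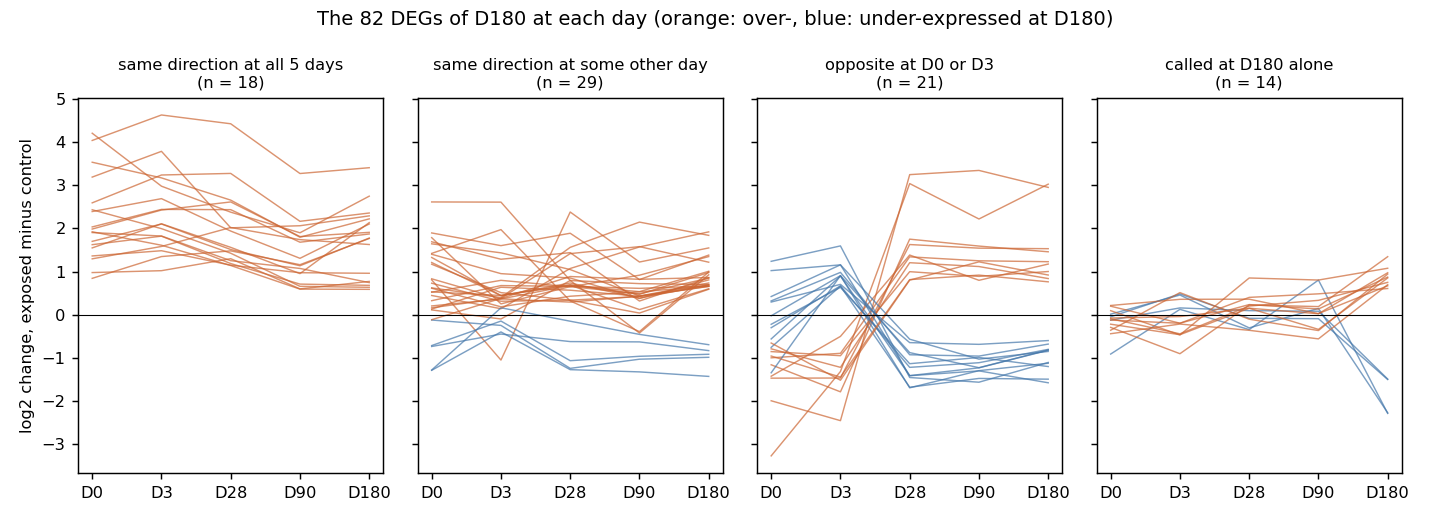
Each line is a DEG of D180, with its log2 change in exposed against control lungs at each day, in 4 panels by its calls on the other days, and with days evenly spaced. The 18 genes of the first panel stay above 0 on all days, and the 21 of the third panel cross it between D3 and D28.

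The exposure effect at D180 was compared with that at D90, whose arrays lay on the same slides. It differed for 3 genes (0.0119% of those tested). An unadjusted p under 0.05 was found for 774 of 25235 genes, fewer than the 1 in 20 that chance alone would give. With slide as a block it differed for 10 genes. Dact1, a regulator of Wnt signalling, changed by 0.70 at D180 and -0.56 at D90, a difference of 1.25. Adam19, a membrane metalloprotease, changed by 0.67 (SE 0.08, adjusted p = 7.8e-07) at D180 and by 0.03 at D90, a difference of 0.64. Dusp5, a phosphatase of ERK kinases, was at 0.39 (adjusted p = 0.066) and -0.49, a difference of 0.88. Control levels of all 3 were lower at D180 than at D90, with 8.90 at D180 against 9.71 for Dact1, 10.82 against 11.25 for Adam19 and 11.14 against 11.63 for Dusp5. Exposed levels of all 3 were higher at D180 than at D90. They were 9.60 at D180 against 9.15 for Dact1, 11.5 against 11.28 for Adam19 and 11.54 against 11.14 for Dusp5. The 2 probes of Adam19 disagreed at D180, with 0.69 and 0.02. No gene was called with the 20 arrays of both days fitted alone, and 1 gene without control replicate 1.

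Against D0, the end of exposure, the effect differed for 549 genes (2.18%), 223 upward and 326 downward. The largest upward differences were those of Nr1d1 (6.29), Dbp (4.94), Nr1d2 (3.00) and Ccdc116 (2.76). The largest downward differences were those of Cxcl5 (-3.76), the serine protease Prss30 (-3.25), Rasgef1c (-3.02) and Lcn2 (-2.83). Lcn2, a siderophore-binding protein of neutrophils and epithelium, was over-expressed at D0 (3.22) and stood at 0.39 at D180 (adjusted p = 0.71), and Cxcl5 went from 4.06 to 0.29.

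Markers of tissues that a lobe can carry with it were read in each lung. None of the 9 red cell, 10 cardiac muscle, 7 mesothelial, 8 ciliated, 8 fat or 11 lung epithelium and endothelium markers was called. Their medians lay between -0.20 and 0.11 (log2), and the mean level of the lung markers was 15.65 to 15.80 in controls and 15.65 to 15.72 in exposed rats. Mean levels of the mesothelial list were 9.51 to 9.81 in controls and 9.28 to 9.61 in exposed rats, and its member Lrrn4 was at -0.56 (adjusted p = 0.026). Muscle markers were highest in exposed replicate 4. The mean level of the cardiac list was 10.51 in that lung, against 9.27 to 9.97 in controls and 9.47 to 9.77 in the other exposed rats. For skeletal muscle markers the same lung stood apart. Their mean level was 5.66 to 5.82 in controls and 5.80, 5.89, 6.21, 9.69 and 5.98 in exposed rats, with exposed replicate 4 highest, and all 10 were positive without a call. The fast myosin heavy chain Myh1 was at 11.32 in that lung and at 4.31 to 6.73 in the other exposed rats. Without exposed replicate 4, 64 genes were DEGs, of which 60 were among the 82, and Mylk2, also expressed in skeletal muscle, had its lowest exposed level in that lung (8.84).

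Some calls rested on dim probes. Of the 82 DEGs, 71 were well above background on at least 3 of 5 arrays of both groups, 7 only in exposed rats, 3 only in controls and 1 in neither. Tas2r144, a bitter taste receptor, was at 2.68, 2.27, 5.49, 6.25 and 6.72 in controls and at 2.30 to 2.60 in exposed rats, none of them well above background. The control mean was thus at least 3.79-fold higher, although 2 of 5 control lungs lay as low as the exposed ones (adjusted p = 0.0052). Ferd3l, a transcription factor gene, was likewise below background in all exposed rats, with control levels from 2.58 to 6.76 and a control mean at least 3.96-fold higher (adjusted p = 0.033). Both genes were picked on these values, and like 6 other DEGs their groups overlapped. Ferd3l lost its call without control replicate 1, 2 or 5 or any exposed rat (adjusted p = 0.053 to 0.16), and Tas2r144 when the 10 arrays were fitted alone (adjusted p = 0.34).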

How the data were processed

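RNA of 50 lungs was measured on one-colour Agilent 8x60K rat arrays, and groups came from the labels. What was deposited for each array is its spot intensity on a linear scale, written by Agilent Feature Extraction 11.0.1.1 (per the file headers), which had subtracted background and spatial trend but had not scaled arrays to each other. The study's methods name another version of this software. A table of intensity values by the authors, linear and quantile normalized by its values, served as an alternative. Its values ranked as the median spot signal before background subtraction (rank correlation of at least 0.999993 on each array). Normexp background correction, another alternative, added an offset of 50 to the corrected signals, which makes log2 changes of dim genes smaller.

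Of 62976 spots per array, the 58717 gene spots were used, without those marked as not uniform or as outliers. In 22 files 84 gene names had been altered and were restored from the other files. Spots of a probe and then probes of a gene name were averaged on the linear scale, log2 transformed and quantile normalized. Probes had to exceed the 95th percentile of an array's 308 negative controls in 5 or more of the 50 arrays (29578 of 30367 probes, 25235 genes). A gene was missing on an array where 1 of its probes was missing (266 values). Limma 3.58.1 in R 4.3.3 was fitted with 10 group means over 50 arrays, without a slide term, and p-values were two-sided with Benjamini-Hochberg adjustment. A gene was well above background on an array where any of its probes was so marked. "At least" folds set a group that was nowhere well above background to the higher of its own signal and the lowest signal of genes well above background.

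The genes, lists and tests were chosen with earlier results of these data known, so lists are described by counts and medians and were not tested as sets. Named were the 15 largest increases and 12 largest decreases that have a symbol and no overlap between groups, called list members, up to 4 uncalled members per list, the 4 largest interactions in each direction and the genes called on all 5 days. The fit was tested on simulated data. The labels number the rats of a group and give no cage or exposure batch, so p-values measure the spread between these rats.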

Additional observations from a re-analysis of the deposited data

Results flagged for a closer look

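Among the 164 groups of 5 rats behind the 82 DEGs, 13 (7.93%) held 1 lung far from the other four by Dixon's test, where chance flags about 1 in 20. In controls these were Scn10a in replicate 4 (level 4.42), Mmp7 in replicate 1 (5.47), Per2 in replicate 1 (8.40), Cnga2 in replicate 3 (4.70) and Adamts9 in replicate 4 (10.00). In exposed rats they were Npr3 in replicate 4 (7.10), LOC102555154 in replicate 2 (7.57), Ferd3l in replicate 2 (3.20), Dio3 in replicate 3 (7.17), Car5a in replicate 5 (6.80), the probe A_64_P159140 in replicate 1 (6.08), Wnt10a in replicate 1 (5.94) and Nim1 in replicate 1 (6.86). All are log2 normalized signals. For Adamts9, an extracellular protease, the low control lung was the one that overlapped the exposed rats, and the call was lost without any 1 array other than control replicate 4 and exposed replicate 5 (limma adjusted p = 0.061 to 0.14).

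The exposure effect differed between D180 and D90 by the interaction test for Dact1 (1.25), Adam19 (0.64) and Dusp5 (0.88). The largest differences from D0 by the same test were those of Nr1d1 (6.29), Dbp (4.94), Nr1d2 (3.00) and Ccdc116 (2.76) upward and of Cxcl5 (-3.76), Prss30 (-3.25), Rasgef1c (-3.02) and Lcn2 (-2.83) downward.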

How the results depend on the processing

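Of the 82 DEGs of D180, 36 were called under all of the 12 alternatives in which they could be fitted and 34 of these also without each array in turn, and none of the 82 changed direction. The 82 became 240 with no fold limit (164 over- and 76 under-expressed), 38 at 2-fold (28 and 10) and 426 with an unadjusted p (237 and 189). They became 132 with slide as a block (43 under-expressed), 50 with normexp background correction (32 over-expressed) and 53 in the authors' value table (34 over-expressed), and 32 were under-expressed with 75th percentile scaling. The cause was not tested. Other alternatives gave 67 to 109 DEGs, but not always the same genes. With the 10 arrays of D180 fitted alone there were 79 DEGs, of which 57 were among the 82. With 1 array left out, 60 to 89 genes were DEGs, 47 to 64 over- and 13 to 28 under-expressed. The 3 genes that differed between D180 and D90 became 10 with slide as a block, 1 at 2-fold, 359 with an unadjusted p, 0 with the 20 arrays of both days alone, and 1 to 4 with 1 array left out. The 549 that differed between D180 and D0 became 867 with slide as a block, 1018 with no fold limit, 231 at 2-fold and 1214 with an unadjusted p, and 479 to 571 with 1 array left out. Rasgef1c, at -0.09 at D180, ran from -0.32 without control replicate 1 to 0.50 without control replicate 3, and was 0.013 without exposed replicate 1 and 0.0030 without exposed replicate 3.

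The replicate numbers were not taken to pair the rats, since deviations of same-numbered rats correlated at only -0.12 to 0.08. With the replicate block, 67 genes were DEGs at D180, 64 of them among the 82, and 0 genes differed between D180 and D90 (limma). Genes near background were limited by their signal over background, as for Orm1, at 3.41 and at 1.60 with normexp background correction.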

Other observations

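The genes below belong to no list and were picked on their values. At D180 the DEGs held 4 receptors of myeloid cells. Gpr84, a receptor for medium-chain fatty acids, changed by 0.86 (SE 0.18, limma adjusted p = 0.0055), Gpr34, a lysophosphatidylserine receptor, by 0.66 (SE 0.16), and the lectins Clec4a and Clec5a by 0.66 (SE 0.14) and 0.59 (SE 0.13). Gpr84 overlapped between groups and the other three did not. All 4 lost their calls with normexp background correction (0.19 to 0.52), and 3 of them without single lungs. These were Clec4a without exposed replicate 2, Clec5a without control replicate 3 or 4 or exposed replicate 1, 2 or 4, and Gpr34 without control replicate 1, 3 or 4 or exposed replicate 1, 2 or 4, with changes of 0.49 to 0.66. Gata3, a transcription factor of type 2 lymphocytes and of epithelia, was at 6.38 to 6.84 in controls and 7.35 to 7.67 in exposed rats (0.85, SE 0.18, adjusted p = 0.0064, and 0.57 with normexp background correction), and was called on no other day, with -0.34 at D90. Dio3, which inactivates thyroid hormone, was at 5.30 to 5.78 and 6.72 to 7.17 (1.35, SE 0.27, adjusted p = 0.0029).

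Some genes outside the clock lists turned direction between D3 and D28 as Dbp did. Rasd2, a small G protein, stood at -0.89 (D3), 1.34 (D28) and 1.23 (D180). Epm2a, a glycogen phosphatase, changed by -1.78, 1.75 and 1.46 on the same days. The sulfotransferases of heparan sulfate, Hs3st6 and Hs3st3a1, fell at D180 (-0.82 and -0.68) and stood at 1.16 and 0.98 at D3, although the 2 probes of Hs3st3a1 disagreed at D180 (-0.70 and -0.11).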
